A study of Mus musculus with 10 samples.

Results

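The 43 genes described here encode the machinery that copies DNA and the regulators that open S phase. They were followed in mouse embryonic fibroblasts (MEFs) whose division had been stopped by irradiation. The genes were chosen by name, with earlier results of these data known. Each was read from the probeset that carries its symbol alone and has the highest mean over the 10 arrays. All 43 had such a probeset, out of 19938 genes that have one, and 3 of them (Pcna, Tk1 and Slbp) had a further probeset. RNA of the MEFs was hybridised to Affymetrix Mouse Gene 1.0 ST arrays, 1 array per dish. Values are deposited log2 signals after RMA, a method that corrects background, equalises the arrays and summarises the probes of a probeset. Each probeset has its own affinity, so levels are compared between arrays and not between genes.

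There were 3 arrays of MEFs + ALL + nilotinib, 1 of MEFs + ALL + DMSO, 3 of MEFs + nilotinib and 3 of MEFs + DMSO. The MEFs of every group were wild type, had received 1000 rad, were kept in medium with 10 ng/ml murine IL-3 and were harvested on day 9. The ALL cells were of the single line 8093, murine precursor B lymphoblasts from a mouse with a BCR/ABL transgene, and a Transwell filter (pore of 0.4 µM as labelled) lay between them and the MEFs. Nilotinib, an inhibitor of the Abl kinase, was used at 16 nM in the groups that carry its name, and the DMSO groups received the solvent alone. The triplicates are dishes plated with the same kind of MEFs, so p-values measure the spread between dishes. The methods state that ALL cells were found in further DMSO co-cultures, for which reason MEFs + ALL + DMSO rests on a single array.

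Before S phase, the origin recognition complex marks the places where copying can start, and Cdc6 and Cdt1 load the ring-shaped MCM2-7 helicase there. Cyclin E with its kinase and a further kinase switch the helicase on by adding Cdc45 and the GINS complex, after which primase, polymerases, the PCNA clamp and ligase build the new strands. Most of these genes are held off in resting cells by retinoblastoma family proteins bound to E2F factors, and they are transcribed together as cells pass from G1 into S. Irradiated feeder fibroblasts stay alive and secrete factors but have left the division cycle. Such genes are usually low in cells outside that cycle.

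E2F factors bind DNA at words of the form TTTCCCGC, TTTCGCGC, TTTGCCGC or TTTGGCGC, and the stretches around such words are shown because the members are textbook E2F targets. RefSeq promoter windows of GRCm38.p6, from 250 bases before to 50 after each start site, were on hand for 35 of the 43 members in 40 windows. Mcm4, Gins1, Gins2, Gins4, Prim2, Pole, Rfc2 and Ccne2 had no entry. At least 1 of the 4 words, read on both strands, was in 13 of the 40 windows (32.5%) and in 744 of 32851 windows of all genes (2.26%). Capitals mark the word, which is its reverse complement where it begins with GCG. In Mcm5 and Mcm6 a pair of words on opposite strands overlaps into 1 run, and in Rfc3 a pair lies 2 bases apart.
Orc1, chr4:108579421-108579440, plus strand: ttagtgGCGCGAAAagtttt
Cdc6, chr11:98908007-98908026, plus strand: tggagaGCGGGAAAtcgcct
Mcm3, chr1:20820280-20820299, minus strand: tccgtgGCGGGAAAacttgg
Mcm5, chr8:75109350-75109373, plus strand: aagaacTTTCGCGCCAAAacgtcc
Mcm6, chr1:128359798-128359821, minus strand: tatgctTTTGGCGCGAAAagtgcg
Mcm7, chr5:138172035-138172054, minus strand: cgaaccGCGGGAAAcagggt
Pole2, chr12:69228167-69228186, minus strand: gcggtgGCGCCAAAtcgcga
Rfc3, chr5:151651195-151651224, minus strand: gcacgcTTTCGCGCtcGCGGGAAAactcta
Lig1, chr7:13278846-13278865, plus strand: aagtgcGCGCGAAAtctgtg
Cdt1, Gins3, Pola1 and Pold1 also held a word. Counted by gene and not by window, 13 of 35 members (37.1%) and 704 of 27025 genes (2.6%) held one. In the other lists, also by gene, 11 of 36 other replication genes (30.6%), 2 of 10 G1/S inhibitors and 1 of 24 mitotic genes (4.17%) did. Among marker genes, 0 of 8 fibroblast, 0 of 13 leukocyte and 0 of 16 B-lineage ones did.

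The promoters of Ccne1, Prim1 and Mcm2 are shown over the 250 bases before the start site, since these genes were among the 5 members with the largest difference between MEFs + ALL + nilotinib and MEFs + DMSO, of which Ccne2 and Mcm4 had no entry. Capitals mark CCAAT or its reverse complement ATTGG, the word of the factor NF-Y. It was in 21 of 40 member windows (52.5%) and in 12289 of 32851 windows of all genes (37.4%). Windows of mitotic genes held it in 73.1%, those of G1/S inhibitors in 58.3% and those of other replication genes in 46.7%. The shares were 44.4% for fibroblast, 29.4% for B-lineage and 16.7% for leukocyte markers.
Ccne1, chr7:38107491-38107740, minus strand: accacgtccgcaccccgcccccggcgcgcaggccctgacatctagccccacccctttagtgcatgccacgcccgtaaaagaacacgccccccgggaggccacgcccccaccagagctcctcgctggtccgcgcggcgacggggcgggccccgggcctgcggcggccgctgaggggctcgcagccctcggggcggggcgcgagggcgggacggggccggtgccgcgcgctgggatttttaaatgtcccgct
Prim1, chr10:128014965-128015214, plus strand: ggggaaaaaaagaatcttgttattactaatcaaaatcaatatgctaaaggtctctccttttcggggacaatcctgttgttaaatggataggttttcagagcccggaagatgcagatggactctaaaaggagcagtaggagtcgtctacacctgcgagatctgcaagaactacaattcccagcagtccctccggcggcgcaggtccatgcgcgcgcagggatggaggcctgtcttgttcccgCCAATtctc
Mcm2, chr6:88898781-88899030, minus strand: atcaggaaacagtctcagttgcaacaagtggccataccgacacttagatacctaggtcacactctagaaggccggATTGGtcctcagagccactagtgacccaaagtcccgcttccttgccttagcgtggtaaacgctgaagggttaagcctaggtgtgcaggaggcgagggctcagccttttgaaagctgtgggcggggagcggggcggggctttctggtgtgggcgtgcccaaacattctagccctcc
None of these 3 stretches held an E2F word, and that of Ccne1 held no CCAAT either. These matches describe the letters in the windows and are not evidence of binding.

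The layer had the transcripts of fibroblasts, and 15 of 15 fibroblast markers had means above 6.37 in every group. That level is the 95th percentile in MEFs + DMSO of 1194 genes for receptors of smell and pheromones, a gauge of the signal of silent genes. The means of 12 of 13 macrophage markers were above 6.37 in every group too. Of 16 leukocyte markers, 16 were above it in MEFs + ALL + DMSO and 13 in every other group. The median of every array was above 6.37, so most probesets were above it as well. Each probeset has its own affinity, so these counts do not settle which cells the layer held. They do not show a layer of fibroblasts alone. Array medians ran from 6.94 to 7.01 and correlations between arrays across probesets from 0.975 to 0.995. The lone MEFs + ALL + DMSO array stood apart, with a score of 66.9 on the leading principal component (30.8% of the variance) against -22.6 to 9.13 for the others, and replicate 2 of MEFs + ALL + nilotinib stood apart on the next (50.0, with 18.9% of the variance). In MEFs + DMSO, 37 of the 43 members were above this level, and Orc1, Gins1, Pola1, Prim1, Pole2 and Ccne2 were below it. For these 6 genes the differences over MEFs + DMSO are those of the measured signals and are not exact sizes of change. Of 29 mitotic genes, 18 were above it in MEFs + DMSO.

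Ccne1 and Mcm2 rose in MEFs + ALL + nilotinib over MEFs + DMSO, and no member fell. Ccne1 encodes cyclin E1, which drives entry into S phase, and Mcm2 encodes a subunit of the replicative helicase. Most other members leaned the same way by small amounts, with 42 of 43 differences above 0, a median of 0.20 on the log2 scale and a range from -0.03 to 0.64, where the median of all 35557 probesets was -0.00. The cyclin gene Ccne1 had log2 signals of 9.57, 9.52 and 9.56 in MEFs + ALL + nilotinib, 9.67 in MEFs + ALL + DMSO, 9.21, 9.35 and 9.31 in MEFs + nilotinib and 9.07, 9.03 and 9.07 in MEFs + DMSO. The MEFs + ALL + nilotinib arrays lay above every array of both MEFs-only groups, and the MEFs + nilotinib arrays lay between the other groups without overlap. Mcm2 had log2 signals of 8.65, 8.71 and 8.65 in MEFs + ALL + nilotinib, 10.38 in MEFs + ALL + DMSO, 8.34, 8.51 and 8.46 in MEFs + nilotinib and 8.25, 8.23 and 8.25 in MEFs + DMSO. Its groups were ordered like those of Ccne1 and did not overlap either, but its value in MEFs + ALL + DMSO was far above all others. The means of Ccne1 were 9.55 ± 0.03 in MEFs + ALL + nilotinib and 9.05 ± 0.02 in MEFs + DMSO (SD, n = 3 each), a 1.41-fold rise, or 0.50 on the log2 scale (SE 0.06, limma adjusted p = 0.0192). Those of Mcm2 were 8.67 ± 0.04 in MEFs + ALL + nilotinib and 8.24 ± 0.01 in MEFs + DMSO (SD, n = 3 each), a 1.34-fold rise, or 0.42 on the log2 scale (SE 0.06, limma adjusted p = 0.0337).

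Limma thus called 2 of 43 members as higher and 0 as lower, where it called 0.503% of all probesets as higher. At an unadjusted p under 0.05 there were 21 members, all higher, against 9.5% of all probesets, and for 23 members the MEFs + ALL + nilotinib arrays lay above all MEFs + DMSO arrays without overlap, against 14.1% of all probesets. Counted by array, 35, 32 and 36 of the 43 members in the MEFs + ALL + nilotinib replicates stood above all MEFs + DMSO arrays. Of all 35557 probesets, 11418, 13080 and 12082 did so in the same replicates. The median of the members lay 0.29, 0.17 and 0.17 above the MEFs + DMSO mean in them. Both calls depended on which arrays entered the fit. Mcm2 kept its call without MEFs + nilotinib replicate 1 (adjusted p = 0.0351) and lost it without any other replicate (0.133, 0.0625 and 0.0946 without MEFs + ALL + nilotinib replicates 1, 2 and 3, 0.0556 and 0.0693 without MEFs + nilotinib replicates 2 and 3, and 0.124, 0.150 and 0.142 without MEFs + DMSO replicates 1, 2 and 3). Ccne1 lost it without MEFs + ALL + nilotinib replicates 1 and 3 (0.0902 and 0.0812) and without each of the MEFs + DMSO replicates (0.0778, 0.121 and 0.0979). Without MEFs + ALL + nilotinib replicate 2, which stood apart, 1 member (Ccne1) was called and the median difference of the members was 0.23. With only the groups compared in the fit limma called 0 members, and with array weights 8. Without the dimmer probesets, those whose mean lay below the median of all, it called 6 of the 33 members that stayed. These fits called 0.0337%, 3.55% and 5.19% of the probesets they covered as higher or lower, against 0.627% for the fit with 2 members called.

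**Figure D1:**
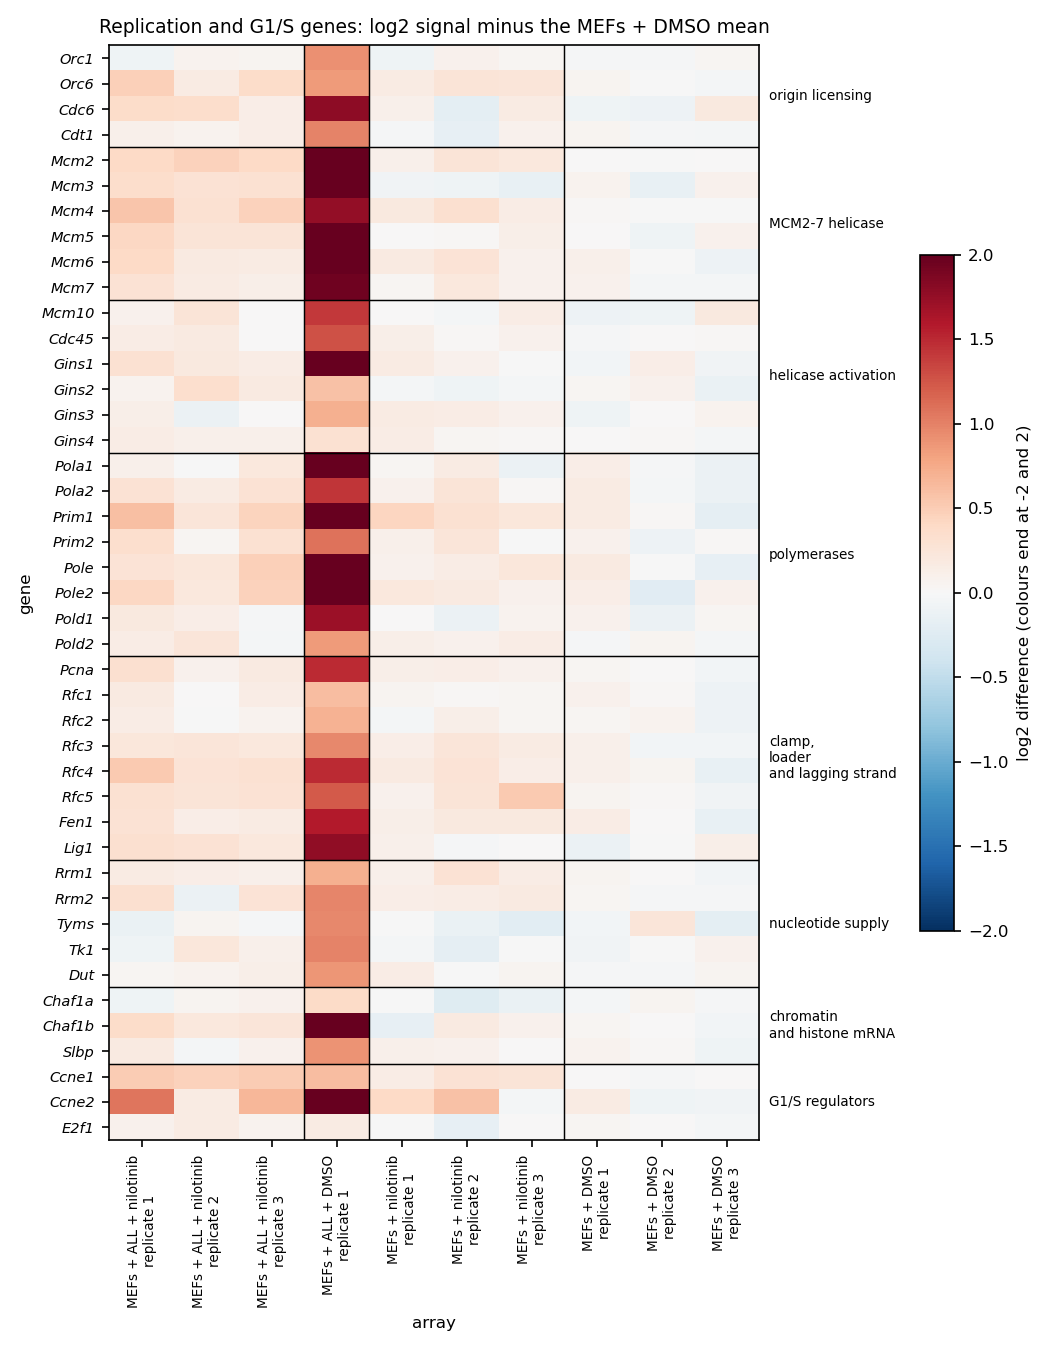
Log2 signal of each of the 43 genes (rows, by role) in each of the 10 arrays (columns), minus the gene's mean in MEFs + DMSO. Colours run from blue for lower to red for higher and end at -2 and 2. The column of the lone MEFs + ALL + DMSO array is the darkest red for 42 of 43 genes, and the MEFs + ALL + nilotinib columns are pale red for most.

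With the drug held the same, no member passed the adjusted test in MEFs + ALL + nilotinib over MEFs + nilotinib. Differences above 0 were found for 40 of 43 members, against 17055 of 35557 probesets. The subunit gene Mcm3 had the largest difference, with log2 signals of 7.69, 7.63 and 7.64 in MEFs + ALL + nilotinib, 9.55 in MEFs + ALL + DMSO, 7.26, 7.25 and 7.19 in MEFs + nilotinib and 7.40, 7.19 and 7.42 in MEFs + DMSO. For Mcm3 the MEFs + ALL + nilotinib arrays lay above all MEFs + nilotinib and MEFs + DMSO arrays, and the MEFs-only groups overlapped. The difference of Mcm3 was 0.41 on the log2 scale over MEFs + nilotinib (95% interval 0.24 to 0.59, adjusted p = 0.111) and 0.31 over MEFs + DMSO (adjusted p = 0.113). Ccne1 differed from MEFs + nilotinib by 0.26 (adjusted p = 0.208) and Mcm2 by 0.23 (adjusted p = 0.291). Limma called 0 of 43 members here, where it called 0.149% of all probesets as higher. The median difference of the members was 0.11, with a range from -0.12 to 0.41, and it was 0.07 without MEFs + ALL + nilotinib replicate 1. At an unadjusted p under 0.05 there were 9 members, all higher, against 4.93% of all probesets, and 10 did not overlap in the higher direction, against 7.8%. The fits with array weights and with a trended, robust variance called 0 members as well. Without the dimmer probesets Mcm3 passed, where 0.979% of the probesets left were called.

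Nilotinib without ALL cells was followed by 0 calls among the members and 0% of all probesets, and the smallest adjusted p of any probeset was 0.237. The medians of the members lay 0.10, 0.13 and 0.08 above the MEFs + DMSO mean in the MEFs + nilotinib replicates. The median difference of the members was 0.08, with a range from -0.13 to 0.32. For 35 of 43 members the difference was above 0, against 17997 of 35557 probesets. Members at an unadjusted p under 0.05 numbered 8, all higher, against 6.77% of all probesets, and 13 did not overlap in the higher direction, against 13.6%. Prim1, the catalytic subunit of primase, whose MEFs + DMSO mean lay below the level of silent genes, had a measured difference of 0.32 (95% interval 0.06 to 0.59, adjusted p = 0.394). Ccne1 differed by 0.24 (adjusted p = 0.338) and Mcm2 by 0.19 (adjusted p = 0.371). The trended, robust fit and the weighted fit called 0 members as well. The comparisons over MEFs + DMSO share their control arrays, so their differences are not independent of each other.

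**Figure D2:**
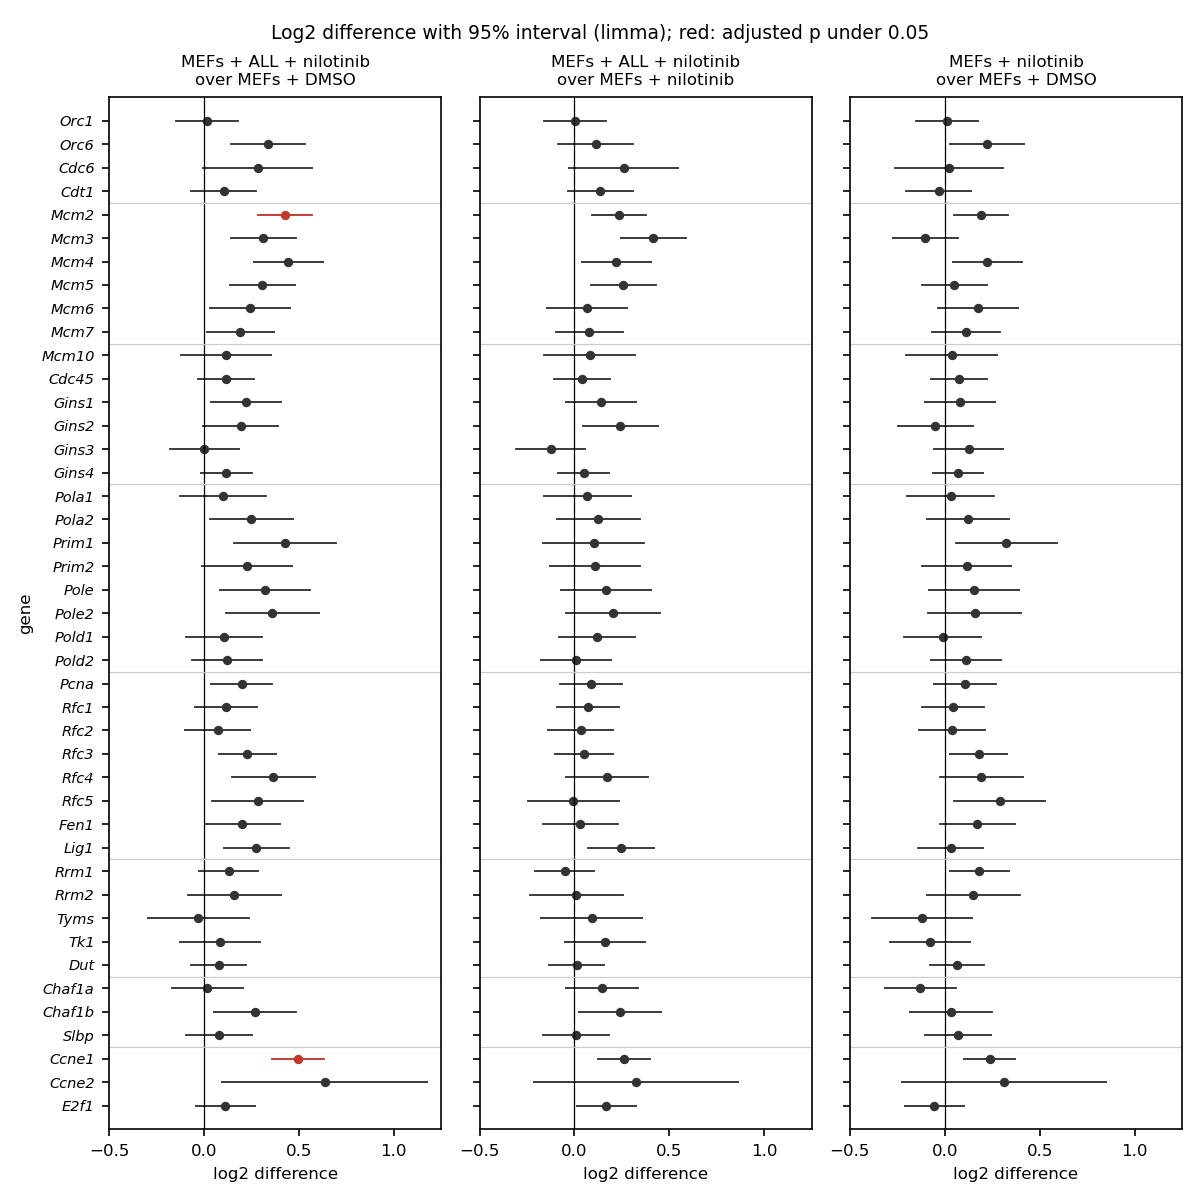
Log2 difference (points) with its 95% interval from limma (lines) of each gene in 3 comparisons named above the panels, with red for an adjusted p under 0.05. Red marks Ccne1 (0.50) and Mcm2 (0.42) in the left panel alone, and most points of all panels lie right of 0.

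In the single array of MEFs + ALL + DMSO nearly the whole replication programme was higher than in MEFs + DMSO. Limma called 40 of 43 members as higher, against 6.67% of all probesets, and 0 as lower, and the median difference was 1.28 on the log2 scale, with a range from 0.16 to 2.73. The exceptions were Gins4 (0.31, adjusted p = 0.0509), Chaf1a (0.39, adjusted p = 0.0726) and E2f1 (0.16, adjusted p = 0.308). This array lay above all 9 others for 42 of 43 members, where 15.7% of all probesets did, and E2f1 was the exception. The array has no replicate, and limma assumes that it varies like the other groups. Transcripts of the ALL lineage were high in it too. B-lineage markers were called higher for 14 of 17 genes, with a median difference of 2.05, and other leukocyte markers for 16 of 16, with a median of 2.12. Igll1, the surrogate light chain gene of precursor B cells, was at 6.45, 6.77 and 6.64 in MEFs + ALL + nilotinib, 11.08 in MEFs + ALL + DMSO, 6.64, 6.33 and 6.81 in MEFs + nilotinib and 6.81, 6.91 and 6.99 in MEFs + DMSO. The MEFs + ALL + DMSO array was far above the other 9 for this gene. Macrophage markers were called for 0 of 13 genes, and fibroblast markers were higher for 2 (Thy1 and Lum) and lower for 1 (Col1a2) of 15. In bulk RNA a larger share of dividing cells and more replication transcripts per fibroblast cannot be told apart, and neither can ALL cells in the dish and a response of the MEFs to ALL cells in this single array.

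In the MEFs + ALL + nilotinib arrays the medians of the marker lists lay within 0.16 of the MEFs + DMSO mean. The medians of the 17 B-lineage markers were -0.10, -0.00 and -0.16 relative to the MEFs + DMSO mean in the MEFs + ALL + nilotinib replicates. Over MEFs + DMSO 0 of 17 were called, and the differences were below 0 for 14 and above 0 for 3, with a median of -0.11. Means above 6.37 were found for 4 of these 17 markers in MEFs + ALL + nilotinib, 13 in MEFs + ALL + DMSO, 5 in MEFs + nilotinib and 5 in MEFs + DMSO. The 16 leukocyte markers had medians of -0.03, 0.01 and 0.02, and 1 of them, Arhgdib, rose (0.74, adjusted p = 0.0266). Of 15 fibroblast markers, the surface antigen gene Thy1 rose (0.60, adjusted p = 0.0416) and the collagen-binding proteoglycan gene Lum differed by 0.71 without passing, with a list median of -0.02. Of 13 macrophage markers 0 were called, with a median of 0.03.

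Set against MEFs + ALL + DMSO, MEFs + ALL + nilotinib were lower for 36 of 43 members by limma's test, against 3.76% of all probesets called lower, with a median difference of -1.13. Orc6, Gins2, Gins4, Chaf1a, Ccne1, Ccne2 and E2f1 did not pass. With only the groups compared in the fit 21 members were called, and Orc1, Cdt1, Gins3, Prim2, Pold2, Rfc1, Rfc2, Rfc3, Rfc4, Rrm1, Rrm2, Tyms, Tk1, Dut and Slbp lost their call. The interaction, that is the difference with and without ALL cells under nilotinib minus that under DMSO, was called lower for 35 of 43 members, against 3.55% of all probesets, with a median of -1.24. Gins2, Gins4, Rfc1, Tyms, Chaf1a, Ccne1, Ccne2 and E2f1 did not pass. Both comparisons and the one above rest on the same single array.

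**Figure D3:**
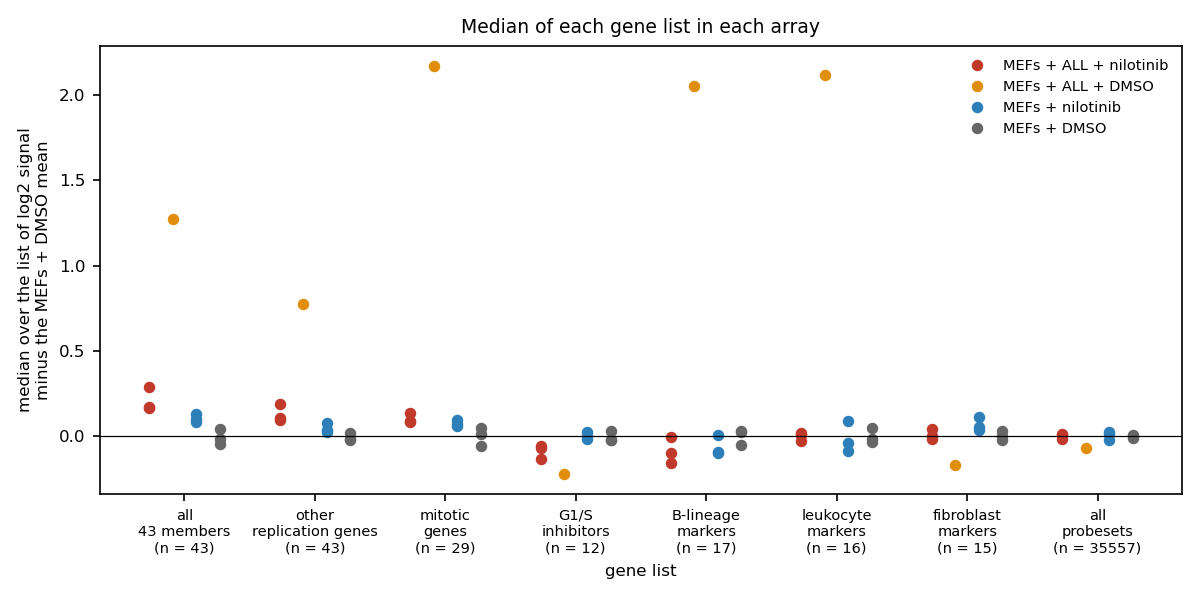
Median over each gene list of the log2 signal minus the MEFs + DMSO mean (vertical axis) in each array (points), for the lists on the horizontal axis with their number of genes. The lone MEFs + ALL + DMSO point is at 1.28 for the 43 members and 2.17 for mitotic genes. It is at 2.05 for B-lineage markers and 2.12 for leukocyte markers. The MEFs + ALL + nilotinib points lie at 0.17 to 0.29 for the members, -0.16 to -0.00 for B-lineage markers and -0.03 to 0.02 for leukocyte markers.

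Origin licensing genes had a median difference of 0.19 in MEFs + ALL + nilotinib and of 0.95 in MEFs + ALL + DMSO over MEFs + DMSO. By limma's test 0 of 4 passed in the first comparison and 4 of 4 rose in the second. Orc6, the small subunit of the origin recognition complex, had log2 signals of 9.66, 9.35 and 9.55 in MEFs + ALL + nilotinib, 10.04 in MEFs + ALL + DMSO, 9.35, 9.45 and 9.42 in MEFs + nilotinib and 9.24, 9.17 and 9.14 in MEFs + DMSO. The MEFs + ALL + nilotinib and MEFs + nilotinib arrays of Orc6 overlapped, and both groups lay above MEFs + DMSO. The difference over MEFs + DMSO was 0.34 in MEFs + ALL + nilotinib (SE 0.09, adjusted p = 0.129) and 0.86 in MEFs + ALL + DMSO (adjusted p = 0.00312). Cdc6, which with Cdt1 brings the helicase to origins, had 6.95, 6.94 and 6.72 in MEFs + ALL + nilotinib, 8.37 in MEFs + ALL + DMSO, 6.69, 6.39 and 6.74 in MEFs + nilotinib and 6.49, 6.48 and 6.78 in MEFs + DMSO. Replicate 3 of MEFs + DMSO was high for Cdc6, so the groups of 3 all overlapped, with a difference of 0.28 in MEFs + ALL + nilotinib (adjusted p = 0.314) and of 1.79 in MEFs + ALL + DMSO (adjusted p = 0.000373). Cdt1 had 7.38, 7.35 and 7.42 in MEFs + ALL + nilotinib, 8.27 in MEFs + ALL + DMSO, 7.25, 7.12 and 7.37 in MEFs + nilotinib and 7.34, 7.26 and 7.24 in MEFs + DMSO. The MEFs + ALL + nilotinib arrays of Cdt1 lay narrowly above MEFs + DMSO, with a difference of 0.10 (adjusted p = 0.54), and its rise in MEFs + ALL + DMSO was 0.99. Orc1, an ATP-binding subunit of the origin complex, had 5.45, 5.62 and 5.60 in MEFs + ALL + nilotinib, 6.45 in MEFs + ALL + DMSO, 5.46, 5.62 and 5.58 in MEFs + nilotinib and 5.52, 5.52 and 5.58 in MEFs + DMSO. All groups of 3 overlapped for Orc1 (difference 0.01 in MEFs + ALL + nilotinib), and the MEFs + ALL + DMSO array was 0.91 above MEFs + DMSO (adjusted p = 0.000751).

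All subunits of the MCM2-7 helicase, the ring that unwinds the double strand, lay above MEFs + DMSO. In 6 of 6 the MEFs + ALL + nilotinib arrays lay above all MEFs + DMSO arrays, against 14.1% of all probesets. An unadjusted p under 0.05 was found for 6 of 6, against 9.5% of all probesets in the higher direction. The median difference was 0.31 in MEFs + ALL + nilotinib and 2.17 in MEFs + ALL + DMSO. Mcm2 alone passed the adjusted test in the first comparison, and 6 of 6 rose in the second. Mcm4 had log2 signals of 8.73, 8.48 and 8.64 in MEFs + ALL + nilotinib, 9.93 in MEFs + ALL + DMSO, 8.37, 8.50 and 8.33 in MEFs + nilotinib and 8.20, 8.16 and 8.16 in MEFs + DMSO. Mcm4 was higher in MEFs + ALL + nilotinib than in every MEFs + DMSO array and overlapped MEFs + nilotinib, with a difference of 0.44 over MEFs + DMSO (SE 0.08, adjusted p = 0.0573). Mcm5 had 7.84, 7.68 and 7.68 in MEFs + ALL + nilotinib, 10.15 in MEFs + ALL + DMSO, 7.43, 7.45 and 7.55 in MEFs + nilotinib and 7.43, 7.34 and 7.51 in MEFs + DMSO. It was the member with the largest difference in MEFs + ALL + DMSO, 2.73 on the log2 scale or 6.62-fold (adjusted p = 2.13e-06), and differed by 0.31 in MEFs + ALL + nilotinib (adjusted p = 0.117), where the arrays lay above both MEFs-only groups. Mcm6, whose window holds the overlapping pair of E2F words shown above, had 8.59, 8.37 and 8.35 in MEFs + ALL + nilotinib, 10.56 in MEFs + ALL + DMSO, 8.37, 8.47 and 8.27 in MEFs + nilotinib and 8.30, 8.19 and 8.09 in MEFs + DMSO. The MEFs + ALL + nilotinib arrays of Mcm6 lay above MEFs + DMSO and overlapped MEFs + nilotinib, with differences over MEFs + DMSO of 0.24 in MEFs + ALL + nilotinib (adjusted p = 0.252) and 2.37 in MEFs + ALL + DMSO (adjusted p = 1.13e-05). Mcm7 had 9.05, 8.93 and 8.87 in MEFs + ALL + nilotinib, 10.70 in MEFs + ALL + DMSO, 8.79, 8.98 and 8.84 in MEFs + nilotinib and 8.84, 8.72 and 8.71 in MEFs + DMSO. It showed the same overlap with MEFs + nilotinib, a difference of 0.19 in MEFs + ALL + nilotinib (adjusted p = 0.278) and a rise of 1.95 in MEFs + ALL + DMSO. For Mcm2 and Mcm3, with their values given above, the rises in MEFs + ALL + DMSO were 2.13 and 2.21, and that of Mcm4 was 1.76.

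**Figure D4:**
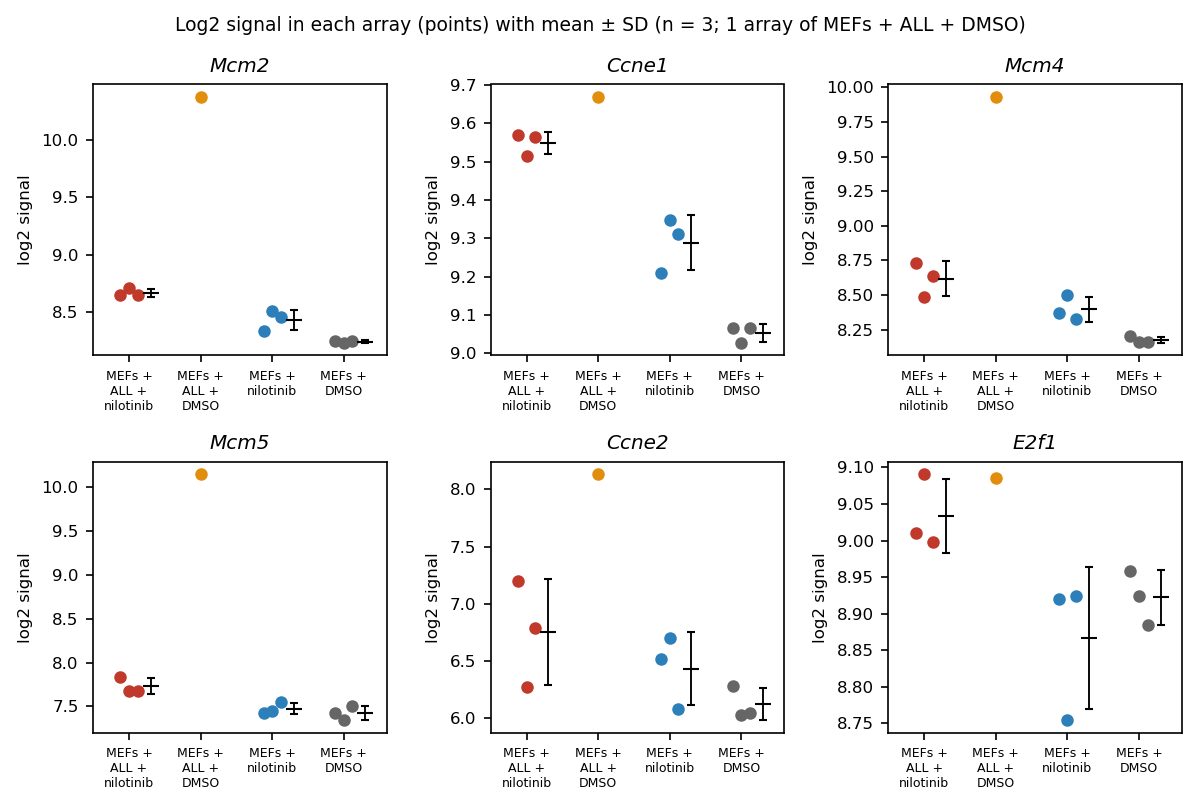
Log2 signal (vertical axis, with its own range in each panel) of 6 genes in each array (points), with mean and SD for the groups of 3. Mcm2, Ccne1, Mcm4 and Mcm5 are higher in every MEFs + ALL + nilotinib array than in every MEFs + DMSO array, Ccne2 is spread widely, and for E2f1 the MEFs + ALL + DMSO array (9.09) is level with the highest MEFs + ALL + nilotinib array.

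Genes of helicase activation turn the loaded ring into an active helicase. Their median difference was 0.12 in MEFs + ALL + nilotinib, where 0 of 6 passed, and 0.99 in MEFs + ALL + DMSO, where 5 of 6 rose. Gins1, a GINS subunit, had log2 signals of 5.49, 5.39 and 5.33 in MEFs + ALL + nilotinib, 7.18 in MEFs + ALL + DMSO, 5.35, 5.27 and 5.18 in MEFs + nilotinib and 5.12, 5.31 and 5.12 in MEFs + DMSO. For this gene MEFs + ALL + nilotinib was narrowly above MEFs + DMSO (0.22, SE 0.08, adjusted p = 0.238), and the MEFs + ALL + DMSO array was 2.00 above (adjusted p = 1.42e-05). Gins2 had 7.93, 8.20 and 8.04 in MEFs + ALL + nilotinib, 8.44 in MEFs + ALL + DMSO, 7.83, 7.78 and 7.83 in MEFs + nilotinib and 7.91, 7.95 and 7.74 in MEFs + DMSO. The MEFs + ALL + nilotinib arrays of Gins2 lay above MEFs + nilotinib and overlapped MEFs + DMSO in range, with differences of 0.24 over MEFs + nilotinib and 0.19 over MEFs + DMSO, beside a rise of 0.58 in MEFs + ALL + DMSO. Gins3 had 6.92, 6.67 and 6.80 in MEFs + ALL + nilotinib, 7.50 in MEFs + ALL + DMSO, 6.95, 6.94 and 6.87 in MEFs + nilotinib and 6.70, 6.81 and 6.87 in MEFs + DMSO, and its difference in MEFs + ALL + nilotinib was 0.00 with overlapping arrays, beside a rise of 0.71 in MEFs + ALL + DMSO. Gins4 had 8.98, 8.94 and 8.95 in MEFs + ALL + nilotinib, 9.15 in MEFs + ALL + DMSO, 8.98, 8.88 and 8.86 in MEFs + nilotinib and 8.85, 8.87 and 8.80 in MEFs + DMSO. The MEFs + ALL + DMSO value of Gins4 was the highest by a small step, and MEFs + ALL + nilotinib lay above MEFs + DMSO by 0.12 (adjusted p = 0.366). Cdc45, which joins GINS on the helicase, had 7.34, 7.36 and 7.20 in MEFs + ALL + nilotinib, 8.46 in MEFs + ALL + DMSO, 7.29, 7.21 and 7.28 in MEFs + nilotinib and 7.15, 7.19 and 7.21 in MEFs + DMSO. Mcm10, which helps the helicase to start unwinding, had 6.65, 6.82 and 6.57 in MEFs + ALL + nilotinib, 7.97 in MEFs + ALL + DMSO, 6.57, 6.53 and 6.71 in MEFs + nilotinib and 6.46, 6.48 and 6.75 in MEFs + DMSO. Both overlapped between the groups of 3, with differences over MEFs + DMSO of 0.11 and 0.12 in MEFs + ALL + nilotinib and rises of 1.28 (Cdc45) and 1.41 (Mcm10) in MEFs + ALL + DMSO.

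Polymerase genes had a median difference of 0.24 in MEFs + ALL + nilotinib, where 0 of 8 passed. An unadjusted p under 0.05 was found for 4 of 8, against 9.5% of all probesets in the higher direction. In MEFs + ALL + DMSO the median difference was 1.88, and 8 of 8 rose. Prim1 had log2 signals of 6.79, 6.44 and 6.64 in MEFs + ALL + nilotinib, 8.77 in MEFs + ALL + DMSO, 6.63, 6.51 and 6.43 in MEFs + nilotinib and 6.36, 6.22 and 6.02 in MEFs + DMSO. These Prim1 values overlapped between MEFs + ALL + nilotinib and MEFs + nilotinib, and both groups lay above MEFs + DMSO, whose mean was below the level of silent genes, with a measured difference of 0.43 in MEFs + ALL + nilotinib (SE 0.12, adjusted p = 0.147) and of 2.57 in MEFs + ALL + DMSO (adjusted p = 2.69e-05). Prim2, the regulatory primase subunit, had 8.15, 7.86 and 8.14 in MEFs + ALL + nilotinib, 8.91 in MEFs + ALL + DMSO, 7.93, 8.07 and 7.82 in MEFs + nilotinib and 7.91, 7.72 and 7.85 in MEFs + DMSO. It overlapped between all groups of 3 (0.22, adjusted p = 0.331). Pole, the leading strand polymerase, had 6.68, 6.63 and 6.88 in MEFs + ALL + nilotinib, 8.87 in MEFs + ALL + DMSO, 6.49, 6.56 and 6.65 in MEFs + nilotinib and 6.59, 6.40 and 6.25 in MEFs + DMSO. Its partner subunit Pole2 had 6.51, 6.30 and 6.55 in MEFs + ALL + nilotinib, 8.31 in MEFs + ALL + DMSO, 6.30, 6.27 and 6.18 in MEFs + nilotinib and 6.22, 5.87 and 6.18 in MEFs + DMSO. For both the MEFs + ALL + nilotinib arrays lay above MEFs + DMSO, by 0.32 (Pole, adjusted p = 0.194) and 0.36 (Pole2, adjusted p = 0.172), and their rises in MEFs + ALL + DMSO were 2.46 and 2.22. Pola1, the catalytic subunit of the polymerase that extends primers, had 6.32, 6.21 and 6.43 in MEFs + ALL + nilotinib, 8.28 in MEFs + ALL + DMSO, 6.27, 6.38 and 6.11 in MEFs + nilotinib and 6.36, 6.20 and 6.11 in MEFs + DMSO. Pola2 of the same enzyme had 8.02, 7.89 and 8.02 in MEFs + ALL + nilotinib, 9.16 in MEFs + ALL + DMSO, 7.81, 7.99 and 7.76 in MEFs + nilotinib and 7.89, 7.68 and 7.61 in MEFs + DMSO. The groups of 3 overlapped for Pola1 (0.10), whereas the MEFs + ALL + nilotinib arrays of Pola2 lay just above MEFs + DMSO (0.25, adjusted p = 0.255). In MEFs + ALL + DMSO Pola1 rose by 2.06, Pola2 by 1.44 and Prim2 by 1.08. Pold1, the lagging strand polymerase, had 7.76, 7.69 and 7.54 in MEFs + ALL + nilotinib, 9.27 in MEFs + ALL + DMSO, 7.57, 7.45 and 7.63 in MEFs + nilotinib and 7.64, 7.43 and 7.60 in MEFs + DMSO. Its accessory subunit Pold2 had 8.22, 8.32 and 8.04 in MEFs + ALL + nilotinib, 8.92 in MEFs + ALL + DMSO, 8.19, 8.15 and 8.23 in MEFs + nilotinib and 8.05, 8.14 and 8.03 in MEFs + DMSO. Both overlapped between MEFs + ALL + nilotinib and MEFs + DMSO (0.11 and 0.12), and they rose in MEFs + ALL + DMSO by 1.71 (Pold1) and 0.85 (Pold2).

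The clamp, its loader and the enzymes that finish the lagging strand had a median difference of 0.21 in MEFs + ALL + nilotinib, where 0 of 8 passed. An unadjusted p under 0.05 was found for 6 of 8, against 9.5% of all probesets in the higher direction. In MEFs + ALL + DMSO 8 of 8 rose, with a median of 1.36. Rfc4, a clamp loader subunit, had log2 signals of 8.05, 7.80 and 7.84 in MEFs + ALL + nilotinib, 9.03 in MEFs + ALL + DMSO, 7.72, 7.80 and 7.66 in MEFs + nilotinib and 7.63, 7.59 and 7.38 in MEFs + DMSO. The MEFs + ALL + nilotinib arrays of Rfc4, although replicate 1 stood well above the others, did not overlap MEFs + DMSO or, narrowly, MEFs + nilotinib, and the difference over MEFs + DMSO was 0.36 (SE 0.10, adjusted p = 0.135). Rfc5 had 8.72, 8.68 and 8.71 in MEFs + ALL + nilotinib, 9.65 in MEFs + ALL + DMSO, 8.50, 8.69 and 8.94 in MEFs + nilotinib and 8.47, 8.44 and 8.35 in MEFs + DMSO. Its MEFs + nilotinib arrays were spread around those of MEFs + ALL + nilotinib, and both groups were above MEFs + DMSO (difference 0.28 in MEFs + ALL + nilotinib, adjusted p = 0.24). Rfc3 had 8.05, 8.07 and 8.04 in MEFs + ALL + nilotinib, 8.79 in MEFs + ALL + DMSO, 7.96, 8.07 and 7.98 in MEFs + nilotinib and 7.93, 7.77 and 7.77 in MEFs + DMSO. Rfc3 likewise overlapped between MEFs + ALL + nilotinib and MEFs + nilotinib, with both groups above MEFs + DMSO and a difference of 0.23 over MEFs + DMSO (adjusted p = 0.163). Rfc1, the large subunit, had 8.97, 8.80 and 8.93 in MEFs + ALL + nilotinib, 9.40 in MEFs + ALL + DMSO, 8.85, 8.82 and 8.83 in MEFs + nilotinib and 8.87, 8.81 and 8.69 in MEFs + DMSO. Rfc2 had 9.01, 8.85 and 8.92 in MEFs + ALL + nilotinib, 9.55 in MEFs + ALL + DMSO, 8.82, 8.97 and 8.90 in MEFs + nilotinib and 8.89, 8.92 and 8.76 in MEFs + DMSO. For both these subunits MEFs + ALL + nilotinib overlapped MEFs + DMSO (0.11 and 0.07), and their rises in MEFs + ALL + DMSO were 0.61 (Rfc1) and 0.70 (Rfc2), against 0.96 to 1.50 for the other loader subunits. Pcna, the sliding clamp, had 9.95, 9.72 and 9.81 in MEFs + ALL + nilotinib, 11.12 in MEFs + ALL + DMSO, 9.74, 9.76 and 9.72 in MEFs + nilotinib and 9.67, 9.64 and 9.58 in MEFs + DMSO. Pcna was above MEFs + DMSO in every MEFs + ALL + nilotinib array, by 0.20 (adjusted p = 0.232) on average, and by 1.49 in MEFs + ALL + DMSO. The further Pcna probeset gave 0.23 in MEFs + ALL + nilotinib and 1.52 in MEFs + ALL + DMSO. Lig1, the ligase that seals the fragments, had 7.93, 7.90 and 7.81 in MEFs + ALL + nilotinib, 9.38 in MEFs + ALL + DMSO, 7.70, 7.59 and 7.61 in MEFs + nilotinib and 7.49, 7.60 and 7.71 in MEFs + DMSO. Fen1, the nuclease that trims them, had 7.52, 7.36 and 7.40 in MEFs + ALL + nilotinib, 8.81 in MEFs + ALL + DMSO, 7.34, 7.42 and 7.42 in MEFs + nilotinib and 7.37, 7.23 and 7.07 in MEFs + DMSO. Lig1 was higher in every MEFs + ALL + nilotinib array than in every MEFs-only array (0.28, adjusted p = 0.147), while Fen1 overlapped by a small margin (0.20, adjusted p = 0.301). They rose in MEFs + ALL + DMSO by 1.78 (Lig1) and 1.59 (Fen1).

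Genes of nucleotide supply had a median difference of 0.09 in MEFs + ALL + nilotinib, with 0 of 5 at an unadjusted p under 0.05, and of 0.96 in MEFs + ALL + DMSO, where 5 of 5 rose. Rrm2, the subunit of ribonucleotide reductase that is made in S phase, had log2 signals of 9.15, 8.72 and 9.10 in MEFs + ALL + nilotinib, 9.81 in MEFs + ALL + DMSO, 8.96, 8.98 and 9.01 in MEFs + nilotinib and 8.88, 8.81 and 8.81 in MEFs + DMSO. Replicate 2 of MEFs + ALL + nilotinib lay below all MEFs + DMSO arrays for Rrm2, and the difference was 0.16 (SE 0.11, adjusted p = 0.506). Rrm1, the large subunit, had 11.11, 11.07 and 11.03 in MEFs + ALL + nilotinib, 11.64 in MEFs + ALL + DMSO, 11.04, 11.23 and 11.09 in MEFs + nilotinib and 10.98, 10.94 and 10.89 in MEFs + DMSO. Rrm1 overlapped between MEFs + ALL + nilotinib and MEFs + nilotinib, both above MEFs + DMSO (0.13 in MEFs + ALL + nilotinib, adjusted p = 0.385). Tyms, thymidylate synthase, had 7.78, 7.97 and 7.89 in MEFs + ALL + nilotinib, 8.88 in MEFs + ALL + DMSO, 7.90, 7.78 and 7.69 in MEFs + nilotinib and 7.86, 8.16 and 7.72 in MEFs + DMSO. It was the only member with a negative difference in MEFs + ALL + nilotinib (-0.03, 95% interval -0.30 to 0.23), and its groups of 3 overlapped. Tk1, the thymidine salvage kinase, had 7.64, 7.95 and 7.83 in MEFs + ALL + nilotinib, 8.71 in MEFs + ALL + DMSO, 7.67, 7.54 and 7.72 in MEFs + nilotinib and 7.66, 7.71 and 7.80 in MEFs + DMSO. Dut, which removes dUTP, had 8.47, 8.51 and 8.55 in MEFs + ALL + nilotinib, 9.32 in MEFs + ALL + DMSO, 8.57, 8.42 and 8.49 in MEFs + nilotinib and 8.40, 8.41 and 8.48 in MEFs + DMSO. The groups of 3 overlapped for both, with differences of 0.09 (Tk1) and 0.08 (Dut). The further Tk1 probeset gave 0.16 in MEFs + ALL + nilotinib and 1.85 in MEFs + ALL + DMSO, where the chosen one gave 0.99. Rises in MEFs + ALL + DMSO were between 0.70 (Rrm1) and 0.99 (Tk1) over these 5 genes.

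Chromatin and histone genes were mixed. Chaf1b, a subunit of the histone chaperone CAF-1 that follows the fork, had log2 signals of 7.46, 7.31 and 7.34 in MEFs + ALL + nilotinib, 9.39 in MEFs + ALL + DMSO, 6.93, 7.28 and 7.19 in MEFs + nilotinib and 7.15, 7.12 and 7.04 in MEFs + DMSO. Every MEFs + ALL + nilotinib array of Chaf1b lay above both MEFs-only groups, by 0.27 over MEFs + DMSO (SE 0.09, adjusted p = 0.222), and it rose by 2.29 in MEFs + ALL + DMSO (adjusted p = 1.56e-05). Chaf1a, the large subunit of the same chaperone, had 7.25, 7.40 and 7.44 in MEFs + ALL + nilotinib, 7.73 in MEFs + ALL + DMSO, 7.34, 7.10 and 7.21 in MEFs + nilotinib and 7.30, 7.41 and 7.33 in MEFs + DMSO. Its groups of 3 overlapped (0.02), and its value in MEFs + ALL + DMSO did not pass. Slbp, which binds the stem-loop of histone mRNA, had 8.68, 8.46 and 8.59 in MEFs + ALL + nilotinib, 9.40 in MEFs + ALL + DMSO, 8.60, 8.58 and 8.51 in MEFs + nilotinib and 8.57, 8.52 and 8.40 in MEFs + DMSO. It overlapped too (0.08), and it rose by 0.90 in MEFs + ALL + DMSO (adjusted p = 0.00119), where the further probeset gave 0.79.

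Among the regulators of G1/S, Ccne1 rose in MEFs + ALL + nilotinib, both cyclin genes rose in MEFs + ALL + DMSO, and E2f1 did not pass in any comparison. Ccne2, the gene of cyclin E2, had log2 signals of 7.19, 6.27 and 6.79 in MEFs + ALL + nilotinib, 8.14 in MEFs + ALL + DMSO, 6.52, 6.69 and 6.07 in MEFs + nilotinib and 6.28, 6.03 and 6.05 in MEFs + DMSO. It had the widest spread of the members, with an SD of 0.46 over the MEFs + ALL + nilotinib dishes, whose replicate 2 lay below the highest MEFs + DMSO array. The difference of Ccne2 in MEFs + ALL + nilotinib was 0.64 (SE 0.24, 95% interval 0.10 to 1.17, adjusted p = 0.241), and it rose in MEFs + ALL + DMSO (adjusted p = 0.0071), with a measured difference of 2.02 over a MEFs + DMSO mean below the level of silent genes. E2f1, the founding activator of this programme, had 9.01, 9.09 and 9.00 in MEFs + ALL + nilotinib, 9.09 in MEFs + ALL + DMSO, 8.92, 8.75 and 8.92 in MEFs + nilotinib and 8.96, 8.92 and 8.88 in MEFs + DMSO. E2f1 was higher in MEFs + ALL + nilotinib than in all MEFs-only arrays by a small step (0.11 over MEFs + DMSO, adjusted p = 0.461), and the MEFs + ALL + DMSO array lay above 2 of these 3 arrays and just below replicate 2. Ccne1 differed by 0.50 in MEFs + ALL + nilotinib and 0.62 in MEFs + ALL + DMSO (adjusted p = 0.00257) over MEFs + DMSO, and its interaction of -0.36 did not pass (adjusted p = 0.112), whereas that of Mcm2 was -1.90 (adjusted p = 2.7e-05).

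Members with an E2F word in their window and those without overlapped in their differences. The 13 with a word had a median of 0.23 in MEFs + ALL + nilotinib over MEFs + DMSO (0.00 to 0.36) and of 1.79 in MEFs + ALL + DMSO (0.71 to 2.73). The 22 without a word had medians of 0.14 (-0.03 to 0.50) and 0.98 (0.16 to 2.57) in the same comparisons. Ccne1 and Mcm2, which rose in MEFs + ALL + nilotinib, are among the 22. These values are a description, without a test.

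Other genes of the pathway were called in the MEFs + ALL + DMSO array and not in MEFs + ALL + nilotinib. Of 43 other replication genes, limma called 0 in MEFs + ALL + nilotinib over MEFs + DMSO (12 higher and 1 lower at an unadjusted p under 0.05, median 0.09) and 32 as higher in MEFs + ALL + DMSO (median 0.78). Over all probesets it called 0.503% as higher in the first comparison (9.5% at an unadjusted p under 0.05) and 6.67% in the second. The largest differences in MEFs + ALL + nilotinib were those of the fork protection gene Tipin (0.47, adjusted p = 0.148), the maintenance methyltransferase gene Dnmt1 (0.39, adjusted p = 0.0702), the polymerase subunit gene Pold3 (0.38, adjusted p = 0.16) and Rpa1 of the single-strand binding protein (0.37, adjusted p = 0.0551). In MEFs + ALL + DMSO these 4 rose by 1.53 (Tipin), 1.57 (Dnmt1), 1.78 (Pold3) and 0.71 (Rpa1). Of 20 E2F factors and other G1/S drivers, 0 were called in MEFs + ALL + nilotinib (median 0.04) and 11 rose in MEFs + ALL + DMSO (median 0.64). The E2F partner gene Tfdp1 differed by 0.30 in MEFs + ALL + nilotinib (adjusted p = 0.155) and Ccnd1, the cyclin D1 gene, by 0.26 (adjusted p = 0.0921), while in MEFs + ALL + DMSO Ccnd1 differed by 0.03.

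Inhibitors of G1/S had a median of -0.09 over 12 genes in MEFs + ALL + nilotinib, and 0 were called. For 6 of 12 the MEFs + ALL + nilotinib arrays lay below all MEFs + DMSO arrays, against 3760 of 35557 probesets. They lay above for 0 of 12, against 5018 of 35557 probesets. Gadd45a, a growth arrest gene that DNA damage induces, had log2 signals of 9.81, 9.65 and 9.71 in MEFs + ALL + nilotinib, 9.27 in MEFs + ALL + DMSO, 10.15, 10.09 and 10.17 in MEFs + nilotinib and 10.13, 10.06 and 10.02 in MEFs + DMSO. It was lower in the MEFs + ALL + nilotinib mean by 0.35 (adjusted p = 0.0647), and it fell by 0.80 in MEFs + ALL + DMSO (adjusted p = 0.000956). The kinase inhibitor gene Cdkn2c and the retinoblastoma-like gene Rbl1 rose in MEFs + ALL + DMSO by 3.46 and 1.61, and differed by 0.02 and 0.15 in MEFs + ALL + nilotinib. Of 29 mitotic genes, 0 were called in MEFs + ALL + nilotinib (6 higher at an unadjusted p under 0.05, median 0.10) and 28 rose in MEFs + ALL + DMSO (median 2.17). Over all probesets 9.5% were higher at that unadjusted p in MEFs + ALL + nilotinib, and 6.67% were called higher in MEFs + ALL + DMSO. The kinesin gene Kif11 differed by 0.45 in MEFs + ALL + nilotinib (adjusted p = 0.137) and Top2a, the topoisomerase gene of dividing cells, by 0.29 (adjusted p = 0.229), beside a 16-fold (Kif11) and a 13.1-fold (Top2a) rise in MEFs + ALL + DMSO. Mki67 was at 6.29, 6.34 and 6.28 in MEFs + ALL + nilotinib, 9.52 in MEFs + ALL + DMSO, 6.15, 6.22 and 6.09 in MEFs + nilotinib and 6.20, 6.44 and 6.14 in MEFs + DMSO. It differed by 0.04 in MEFs + ALL + nilotinib (adjusted p = 0.846).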

How the data were processed

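The authors hybridised RNA of 10 MEF dishes to Affymetrix Mouse Gene 1.0 ST arrays and deposited log2 values per probeset after RMA in Partek. The Partek release was not given in the sources used here. Probesets numbered 35557, of which 21789 had 1 gene symbol, 1621 several and 12147 none in GEO's platform annotation, and 0 columns lacked a sample. Values ran from 2.09 to 15.0. Groups came from the sample labels. Limma 3.58.1 in R 4.3.3 was fitted to all 10 arrays with 4 group means and a shared spread, so that the lone MEFs + ALL + DMSO array was assumed to vary like the other groups. The Benjamini-Hochberg adjustment covered the whole table of probesets, and adjusted p-values under 0.05 were called. The precision is limited by the number of arrays. Intervals are at 95%.

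The members and all gene lists were chosen with earlier results of these data known. Members called in any comparison were given in every array. In the other lists the names were drawn from the called genes and the 4 members with the largest difference between MEFs + ALL + nilotinib and MEFs + DMSO. Of the members, 43 of 43 symbols matched RefSeq. The alternatives were quantile normalization, centring on the median, leaving out dimmer probesets (mean below the median of all), a trended and robust variance, array weights, fitting only the groups compared, leaving out each array, a replicate block and the mean of a gene's probesets. The fit was tested on simulated data. Same-numbered arrays of different groups correlated in their deviations from the group means by -0.293 to 0.241.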

Additional observations from a re-analysis of the deposited data

Results flagged for a closer look

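The difference between dishes with and without ALL cells was tested for a change between nilotinib and DMSO by the interaction in limma, with a single array of MEFs + ALL + DMSO. The interaction was called for 35 of the 43 members, in each case lower under nilotinib, where 3.55% of all probesets were called lower. By role it was called for 4 of 4 origin licensing genes, 6 of 6 subunits of the MCM2-7 helicase, 4 of 6 genes of helicase activation, 8 of 8 polymerase genes, 7 of 8 genes of the clamp, its loader and the lagging strand, 4 of 5 genes of nucleotide supply and 2 of 3 chromatin and histone mRNA genes. For the G1/S regulators Ccne1, Ccne2 and E2f1 it was called in 0 of 3. All of these values rest on the single MEFs + ALL + DMSO array, in which 14 of 17 B-lineage and 16 of 16 leukocyte markers were higher too. RNA of ALL cells and a response of the MEFs cannot be told apart in that array, and the interaction compares the RNA of the dishes, not an effect on the MEFs alone.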

How the results depend on the processing

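In MEFs + ALL + nilotinib over MEFs + DMSO limma called 2 of 43 members as higher, with 223 probesets (0.627%) called in all. Without the dimmer probesets it called 6 of 33 members (Orc6, Mcm3, Mcm4 and Mcm5 joined), with 923 probesets (5.19% of those left). With array weights it called 8 (Orc6, Mcm3, Mcm4, Mcm5, Prim1 and Pole2 joined), with 1263 probesets (3.55%). With only the groups compared it called 0, with 12 probesets (0.0337%). A trended and robust variance called 3 members (Mcm4 joined) and 476 probesets. Under quantile normalization Mcm4 replaced Mcm2. Leaving out 1 replicate gave 0 to 2 members, 8 to 233 probesets and a median difference of the members of 0.17 to 0.23. Mcm2 kept its call in 7 of 18 alternatives (adjusted p of 0.00811 to 0.150) and Ccne1 in 11 of 18 (0.00390 to 0.121).

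The replicate numbers did not pair the arrays. With the replicate block 0 members and 8 probesets were called in this comparison, and the block called 0 members in the other comparisons between groups of 3.

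In MEFs + ALL + nilotinib over MEFs + nilotinib 1 member (Mcm3) was called without the dimmer probesets and 0 under the other alternatives. The median of the members in MEFs + ALL + DMSO over MEFs + DMSO (1.28) was 1.22 under quantile normalization, 0.99 over the 33 members left without the dimmer probesets and 1.41 with the mean of a gene's probesets. Set against MEFs + ALL + DMSO, MEFs + ALL + nilotinib had a median of -1.06 under quantile normalization and -0.90 without the dimmer probesets, and 21 members were called with only the groups compared. The median interaction was -0.96 without the dimmer probesets and -1.33 to -1.23 when 1 replicate was left out, with 31 to 36 members called. The cause of these shifts was not tested. No direction reversed. The interaction uses all groups, so a fit of only the groups compared was not run for it. The lone MEFs + ALL + DMSO array has no replicate to leave out.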
